A study of Mus musculus with 23 samples.

Results

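Alveolar type 1 cell genes were examined in the whole right lung of mice with and without cystic fibrosis (CF). The members were 9 genes used as markers of these cells, Ager, Hopx, Aqp5, Pdpn, Igfbp2, Emp2, Rtkn2, Clic5 and Akap5, found as every probe set annotated with 1 of these symbols and no other. The rule gave 18 probe sets of the 45037 tested and covered all 9 genes of the 18193 genes that had a single-symbol probe set. Aqp5, Pdpn, Igfbp2 and Rtkn2 had 1 probe set each, Ager and Hopx had 2 each, Emp2 and Akap5 had 3 each, and Clic5 had 4. No filter on low values was applied, so all 18 were tested. Each gene is described by its probe set with the highest mean over all arrays, and its other probe sets are given beside it for the CF effects and their strain difference, and elsewhere where named.

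The arrays came from 4 combinations of genotype and strain, each with females and males: CF-/- mice of C57BL/6 (B6; 5 arrays, 3 female and 2 male), CF+/+ controls of B6 (6 arrays), CF-/- mice of BALB/c (BALB; 6 arrays) and CF+/+ controls of BALB (6 arrays), the 6 in each case being 3 female and 3 male. Per the labels, the series was about how strains differ in the disease. They give neither age, diet nor the allele behind CF-/-. They do not say whether the 23 arrays came from separate animals, so the p-values measure the spread between these arrays. Precision was set by the small number of arrays per group.

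Type 1 cells are the thin, flat epithelial cells that cover most of the alveolar surface and across which gas passes to the capillaries. They rest on a basement membrane shared with the endothelium, move water and ions, and are renewed from alveolar type 2 cells, the cells that make surfactant. Cystic fibrosis results from loss of function of Cftr, an epithelial chloride and bicarbonate channel. Several of the 9 genes are also used by other lung cells, among them Pdpn in lymphatic endothelium and Rtkn2 in lymphocytes. In RNA from whole lung, fewer cells of a type and less RNA per cell cannot be told apart.

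The upstream sequences of the 2 members that passed between control mice of the strains, Igfbp2 and Hopx, are shown as the 250 bases before an annotated transcript start, from RefSeq with build GRCm38.p6. Capitals mark GGGCGG, the GC box, as found by a search of both strands. Igfbp2 carries it 3 times and the stretches before both Hopx starts do not carry it. The build comes from a C57BL/6J mouse, and no BALB sequence is shown.
Igfbp2 (chr1:72824230-72824479, plus strand): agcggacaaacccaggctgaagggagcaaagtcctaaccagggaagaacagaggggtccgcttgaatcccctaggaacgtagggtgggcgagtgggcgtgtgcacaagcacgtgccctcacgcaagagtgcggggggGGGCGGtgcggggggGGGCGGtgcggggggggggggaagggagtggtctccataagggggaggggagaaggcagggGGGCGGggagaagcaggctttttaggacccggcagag
Hopx, upstream start (chr5:77115124-77115373, minus strand): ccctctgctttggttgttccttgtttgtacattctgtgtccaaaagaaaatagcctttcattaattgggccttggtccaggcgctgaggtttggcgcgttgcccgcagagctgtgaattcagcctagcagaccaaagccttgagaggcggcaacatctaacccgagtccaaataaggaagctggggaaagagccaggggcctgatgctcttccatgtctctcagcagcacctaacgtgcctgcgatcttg
Hopx, downstream start (chr5:77095268-77095517, minus strand): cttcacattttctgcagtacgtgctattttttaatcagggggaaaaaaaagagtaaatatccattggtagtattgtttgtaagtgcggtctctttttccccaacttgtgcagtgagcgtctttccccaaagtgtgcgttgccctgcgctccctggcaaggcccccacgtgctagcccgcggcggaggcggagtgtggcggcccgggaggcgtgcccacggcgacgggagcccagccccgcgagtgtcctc
Igfbp2 had a further annotated start, also without a match. Of the members, 8 of 9 matched an entry in the promoter table, 10 entries in all, and 5 of the 10 held the GC box, against 32.7% of the 32851 entries of the same length in the table. TATAAA was found in 0 of the 10 member entries, against 12.4% of all entries. GGAATG, the letters bound by TEAD factors, was also found in 0 of the 10, against 12.6% of all entries. These are descriptions of letters in a window, searched on both strands, and no match in the member entries overlapped a match of another motif.

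Array medians lay between 4.56 and 4.64 and array pairs correlated at 0.971 to 0.996. All 9 main probe sets were bright, with means from 7.94 (Rtkn2) to 13.05 (Ager) on the log2 scale, against a median of 4.59 over all probe sets. The lowest single reading was 7.48, so the type 1 cell genes gave high signals on every array, as in lung. The check of the genotype was Cftr, which averaged 3.99 in BALB CF arrays and 5.66 in BALB controls (difference -1.67, limma adjusted p = 6.44e-07), without overlap. In B6 it averaged 4.06 in CF arrays and 4.28 in controls (difference -0.22, adjusted p = 0.43). These values are from the brighter Cftr probe set, which could check the genotype label for BALB alone. The dimmer Cftr probe set averaged 2.21 in BALB CF arrays and 2.38 in BALB controls, with overlap. Its difference of -0.18 did not pass (limma adjusted p = 0.072). Genes of tissues other than lung marked some arrays. The mean level of 11 squamous epithelium genes, relative to each gene's median, was above 1 on the 3 BALB CF females (2.18, 2.69 and 4.05) and on 2 B6 controls (female 1, 1.36; male 3, 3.995), and skeletal muscle genes were raised on the same 5 arrays. The level of 11 intestine genes was -0.24 to 0.89 on the BALB CF arrays, against 0.36 to 1.93 on the 6 BALB controls. It was -0.02 to 0.10 on the B6 CF arrays and -0.12 to 1.52 on the B6 controls, and the part of these tissues in the Cftr difference was not tested.

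In B6, CF arrays had lower signals than controls for 2 of the 9 members, Igfbp2 and Akap5, and none was higher. Igfbp2, a secreted protein that binds insulin-like growth factors and in mice marks mature type 1 cells, fell by 0.68 on the log2 scale. Akap5, a scaffold that holds protein kinase A near the membrane, fell by 0.41. In the same comparison 4.71% of all probe sets passed, and 1.99% passed as lower. The median change of the 9 members was -0.15, against -0.0047 over all probe sets, and 8 of the 9 changes were below 0.

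The Igfbp2 signal was 9.15, 8.71 and 8.79 in B6 CF females and 8.94 and 9.08 in B6 CF males, against 9.31, 9.90 and 9.64 in B6 control females and 9.74, 9.60 and 9.59 in B6 control males. Every CF array of B6 lay below every control, in both sexes. The means were 8.93 ± 0.18 (SD, n = 5) in CF and 9.63 ± 0.20 (SD, n = 6) in controls. The fitted change, averaged over the sexes as are all changes here unless another fit is named, was -0.68 (SE 0.12, 95% interval -0.94 to -0.43). This was a 1.61-fold lower signal with limma adjusted p = 0.0021. Leaving out single arrays gave changes between -0.76 and -0.61.

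Akap5 read 7.84, 8.14 and 8.09 in B6 CF females and 7.59 and 8.01 in B6 CF males, while the B6 controls spanned 8.20 to 8.52 with a median of 8.29. The groups did not overlap, as for Igfbp2. Among all probe sets, 1.11% were lower in B6 CF arrays without overlap. The change was -0.41 (SE 0.11, limma adjusted p = 0.029), 1.33-fold lower. The third Akap5 probe set gave -0.37 (adjusted p = 0.020) and the second, at -0.23 (adjusted p = 0.33), did not pass. The call ended when any of 4 arrays was left out, namely CF male 1 (-0.31, adjusted p = 0.22), control male 1 (adjusted p = 0.080), control female 3 (adjusted p = 0.075) or CF female 1 (adjusted p = 0.067). Without the 5 arrays with raised squamous genes, 2 of them B6 controls, the change was -0.42 (adjusted p = 0.060). In that fit, as wherever these 5 arrays are left out, sex was an additive term.

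The other 7 members did not pass in B6. Hopx, a homeodomain protein that does not itself bind DNA and marks type 1 cells, read 12.02, 11.89 and 11.97 in CF females and 11.76 and 11.87 in CF males, against a narrow 12.00 to 12.07 in controls. Only the highest CF array reached the control range, and the change of -0.15 (SE 0.05) had limma adjusted p = 0.079. Its second probe set gave -0.12 (adjusted p = 0.29). Rtkn2, a member of the rhotekin family, differed by -0.22 (adjusted p = 0.15). Clic5, a chloride intracellular channel family protein linked to the actin cortex, differed by -0.15 (adjusted p = 0.17), and its other 3 probe sets gave -0.14 to -0.11.

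The membrane proteins of the type 1 cell had small differences in B6, none of which passed. Ager, the receptor for advanced glycation end products on the basal side of the cell, differed by 0.03 (95% interval -0.08 to 0.14) and 0.05 on its 2 probe sets. Pdpn, a mucin-type glycoprotein of the apical membrane, differed by -0.03 (95% interval -0.15 to 0.09). Emp2, a tetraspan protein of the epithelial membrane, differed by -0.03 to -0.07 on its 3 probe sets. Aqp5, the apical water channel, differed by -0.10 (95% interval -0.27 to 0.07).

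**Figure D1:**
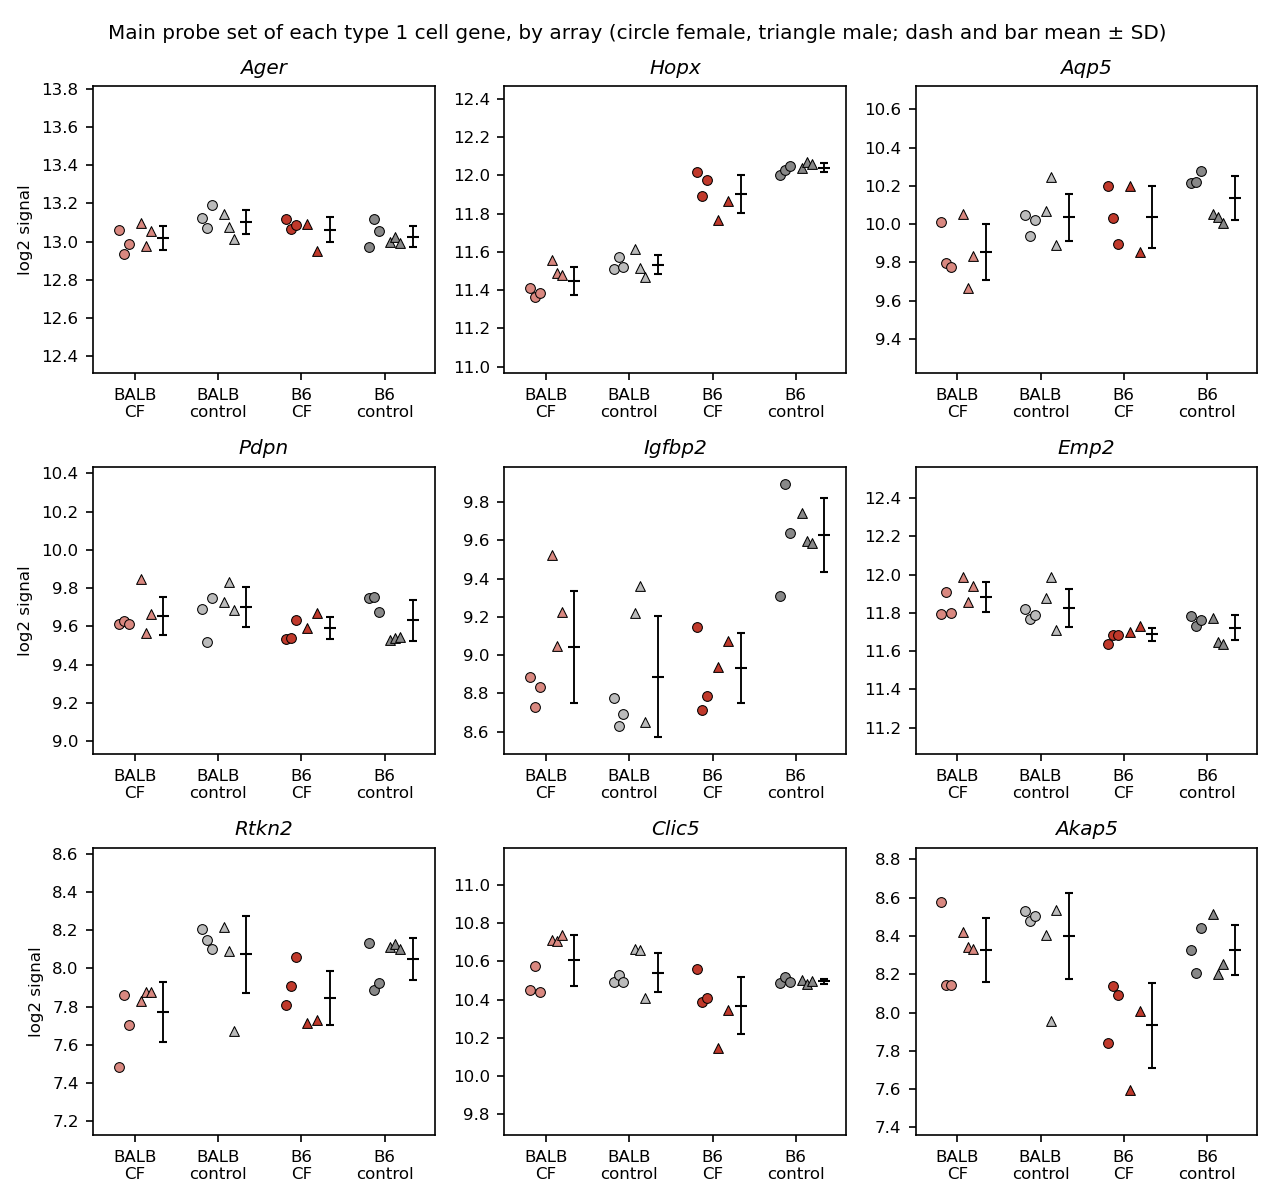
Log2 signal of the main probe set of each of the 9 genes (y axis, of equal span in each panel) on the 23 arrays, grouped along the x axis as BALB CF, BALB control, B6 CF and B6 control. Circles are females, triangles males, and the dash with its bar is the mean ± SD of the group. Igfbp2 stands at 8.71 to 9.15 in B6 CF arrays and 9.31 to 9.90 in B6 controls, and Hopx is lower in both BALB groups than in both B6 groups.

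Markers of other cells moved with the B6 comparison. Of 9 measured T cell genes 8 rose in B6 CF arrays, with Il7r at 0.83 (adjusted p = 8.8e-05), and the level of the list was 0.27 to 0.74 in B6 CF arrays, against -0.71 to -0.03 in B6 controls. Of 8 neutrophil genes 4 rose, and the list level was 0.42 to 1.22 in B6 CF arrays, against -1.14 to 0.82 in B6 controls. That level split by sex: it was 0.42 to 0.73 in CF females and -1.14 to -0.39 in control females. In males it was 1.22 and 0.53 with CF and 0.54 to 0.82 in controls, which overlapped. Of 16 type 2 cell genes 2 fell, Hc (complement C5, -0.71) and Cxcl15 (-0.25, adjusted p = 0.044), and of 15 capillary endothelium genes 2 fell, Aplnr (-0.85) and Tek (-0.25, adjusted p = 0.044). No value in the table was 0, and the lowest was 1.79. Over all probe sets 4.71% passed in this comparison, 1.99% as lower. The part of these shifts in the Igfbp2 and Akap5 differences was not tested.

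In BALB, 1 of the 9 members passed between CF and control arrays, Rtkn2, which fell by 0.30. Over all probe sets 4.92% passed, 2.33% as lower, and the members' median change was -0.08 against -1.73e-05 over all probe sets. Rtkn2 ran from 7.48 to 7.88 with a median of 7.85 in BALB CF arrays, against 7.67 to 8.22 with a median of 8.13 in BALB controls. A single control, male 3 at 7.67, lay inside the CF range, and the other 5 controls were at 8.09 or above. The change was -0.30 (SE 0.08, limma adjusted p = 0.032), 1.23-fold lower. This change rests on the 6 CF and 6 control arrays of BALB alone. The call was lost when any of 9 of them was left out: CF males 1, 2 and 3, CF females 1 and 3, control males 1 and 2, and control females 1 and 3. The changes were then -0.25 to -0.32, with limma adjusted p = 0.051 to 0.097. Without the 5 arrays with raised squamous genes, 3 of which are the BALB CF females, the change was -0.18 (adjusted p = 0.50). That fit held only males among BALB CF arrays and took sex as an additive term. With additive sex and all arrays kept, the change was -0.30 and did not pass either (limma adjusted p = 0.063).

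Igfbp2 did not pass in BALB. It read 8.89, 8.73 and 8.84 in BALB CF females and 9.52, 9.05 and 9.23 in BALB CF males, against 8.78, 8.63 and 8.69 in BALB control females and 9.22, 9.36 and 8.65 in BALB control males. The groups overlapped, males of both genotypes read higher than females apart from control male 3, and the change was 0.15 (SE 0.11, 95% interval -0.09 to 0.39, adjusted p = 0.54). Emp2 passed on its 2 dimmer probe sets, at 0.22 (adjusted p = 0.0493) and 0.25 (adjusted p = 0.0497), while its main one gave 0.06 (adjusted p = 0.65). The first of these read 10.42 to 10.50 in BALB CF arrays and 9.98 to 10.39 in BALB controls, without overlap.

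The main probe sets of the remaining members did not pass between CF and control arrays of BALB. Aqp5 differed by -0.18 (95% interval -0.34 to -0.02, adjusted p = 0.22), Pdpn by -0.05 (adjusted p = 0.75) and Ager by -0.08 (adjusted p = 0.39), with -0.06 on the second Ager probe set. Hopx differed by -0.08 (adjusted p = 0.34) and by -0.12 on its second probe set (adjusted p = 0.24). Akap5 differed by -0.08 (adjusted p = 0.78), with -0.22 (adjusted p = 0.30) and -0.07 on its other probe sets. The Clic5 probe sets were uneven, at 0.06 on the main one (adjusted p = 0.61) and -0.07, 0.08 and 0.35 (adjusted p = 0.18) on the others, and none passed. No main probe set separated the groups without overlap, whereas 0.853% of all probe sets did as lower and 1.05% as higher. Beside these values, squamous genes rose in BALB CF arrays (3 of 11, list level -0.11 to 4.05 in CF, -0.12 to 0.10 in controls) and intestine genes fell (5 of 11). Neutrophil genes rose (5 of 8, list level -0.01 to 1.03 in CF, -1.01 to -0.19 in controls) and T cell genes rose (3 of 9). Lymphatic endothelium genes fell (2 of 5), with a list level of -0.44 to -0.26 in BALB CF arrays, against -0.02 to 0.21 in BALB controls, without overlap. Of 15 capillary endothelium genes 3 fell, with a list level of -0.09 to 0.14 in CF and 0.06 to 0.33 in controls. Over all probe sets 4.92% passed in this comparison, 2.33% as lower. The part of these lists in the BALB differences was not tested.

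The difference between the strains in the CF effect was itself tested, subtracting the effect in B6 from that in BALB, and 2.54% of all probe sets passed. Of the 9 members only Igfbp2 passed, at 0.84 (SE 0.17, 95% interval 0.49 to 1.19, limma adjusted p = 0.0098). Mean levels were 9.04 ± 0.29 in BALB CF arrays and 8.89 ± 0.32 in BALB controls (SD, n = 6 each). In B6 they were 8.93 ± 0.18 in CF arrays (SD, n = 5) and 9.63 ± 0.20 in controls (SD, n = 6), the highest of the 4 groups. Without the 5 arrays with raised squamous genes, which left only males among BALB CF arrays, the difference was 1.06 (adjusted p = 0.011). Mean Igfbp2 was 9.08 in male and 8.70 in female BALB controls, but 9.64 and 9.61 in B6 controls. The sex term of that fit was shared by both strains, so sex and CF cannot be told apart in its BALB effect. With the squamous, muscle and intestine levels as covariates it was 0.96 and did not pass (adjusted p = 0.31).

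For the other 8 members the strain difference of the CF effect did not pass. Akap5 stood at 0.34 (95% interval 0.03 to 0.64, adjusted p = 0.26), so its fall in B6 was not shown to differ from the -0.08 of BALB. Clic5 stood at 0.21 (95% interval 0.04 to 0.38, adjusted p = 0.18). Rtkn2 stood at -0.08 (95% interval -0.32 to 0.17), so the change that passed in BALB was likewise not shown to differ from that of B6. The main probe sets of Ager, Hopx, Aqp5, Pdpn and Emp2 lay between -0.11 and 0.09. The dimmer Emp2 probe sets stood higher than its main one, at 0.29 (95% interval 0.10 to 0.49, adjusted p = 0.10) and 0.30 (95% interval 0.09 to 0.52, adjusted p = 0.13). Clic5 gave 0.06, 0.22 (adjusted p = 0.24) and 0.47 (adjusted p = 0.28) on its other probe sets, and Akap5 gave 0.01 and 0.30 (adjusted p = 0.23). The second probe sets of Ager and Hopx gave -0.11 and -0.00021. Of the marker lists, 2 of 5 lymphatic endothelium genes passed as below 0 and 3 of 11 squamous genes as above 0, and their part in the Igfbp2 difference was not tested.

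**Figure D2:**
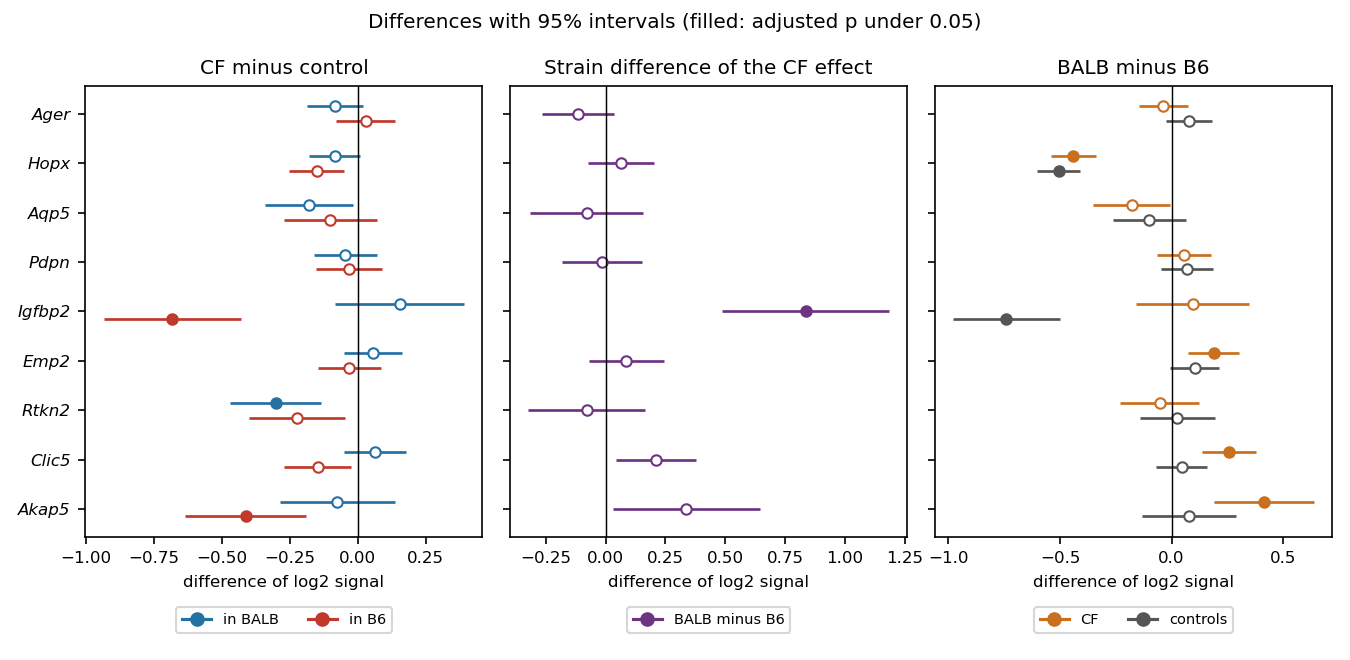
Differences of log2 signal (x axis) for the 9 genes (y axis): CF minus control in BALB and in B6 (left), the BALB effect minus the B6 effect (middle), and BALB minus B6 among CF arrays and among controls (right). Points are limma estimates, bars 95% intervals, and filled points have an adjusted p under 0.05; Igfbp2 is the only filled point in the middle panel, at 0.84.

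Hopx was lower in BALB than in B6 in both genotypes. Among CF arrays, BALB read 11.37 to 11.56 with a median of 11.45, and B6 read 12.02, 11.89, 11.97, 11.76 and 11.87. Among controls, BALB read 11.47 to 11.62 with a median of 11.52, and B6 read 12.00 to 12.07 with a median of 12.04. In both genotypes each BALB array lay below each B6 array on this main probe set. The change was -0.44 (SE 0.05, limma adjusted p = 5.96e-07) among CF arrays and -0.51 (SE 0.05, limma adjusted p = 2.99e-08) among controls, 1.36-fold and 1.42-fold lower in BALB. The second Hopx probe set gave -0.20 in both (adjusted p = 0.017 and 0.013), so both were lower in BALB, by estimates that differed in size. On it the CF arrays of the strains overlapped (BALB highest 10.81, B6 lowest 10.77), while the controls did not. Probe sequences were not used here, and whether a base difference between the strains lies under a probe was not tested.

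Among controls, 15.6% of all probe sets passed between the strains (8.12% lower in BALB), and 2 members passed, both lower in BALB. Hopx was one, and 4.39% of all probe sets were lower without overlap. Igfbp2 was the other, with 8.89 ± 0.32 in BALB controls and 9.63 ± 0.20 in B6 controls (SD, n = 6 each). Its change was -0.74 (SE 0.11, limma adjusted p = 6.08e-05), 1.67-fold lower, and BALB control male 2, at 9.36, reached into the B6 range. The main probe sets of the other 7 members lay between -0.10 and 0.10, and the other probe sets of Ager, Emp2, Clic5 and Akap5 between 0.05 and 0.18 without passing.

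Among CF arrays, 18.2% of all probe sets passed between the strains, and 4 of the 9 members did. Hopx was lower in BALB, and Akap5, Clic5 and Emp2 were higher, where 8.66% of all probe sets were higher and 9.52% lower. On the main probe sets Hopx was also lower without overlap, as were 5.53% of all probe sets, and Akap5 and Emp2 higher without overlap, as were 4.29%. Akap5 read 8.14 to 8.58 with a median of 8.34 in BALB CF arrays, against the 7.59 to 8.14 of B6 CF arrays. They did not overlap, though the lowest BALB array (8.144) and the highest B6 array (8.138) were nearly equal. Its change was 0.42 (SE 0.11, limma adjusted p = 0.0082), and 0.31 (adjusted p = 0.091) without B6 CF male 1. The third Akap5 probe set gave 0.36 (adjusted p = 0.0060) and the second gave 0.06 (adjusted p = 0.78).

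Clic5 read 10.44 to 10.74 with a median of 10.64 in BALB CF arrays, against 10.56, 10.39 and 10.41 in B6 CF females and 10.14 and 10.34 in B6 CF males. The groups overlapped, and the change was 0.26 (SE 0.06, limma adjusted p = 0.0031). Of its other probe sets, those at 0.34 (adjusted p = 0.0011) and 0.65 (adjusted p = 0.0038) passed and that at 0.14 (adjusted p = 0.12) did not. Emp2 read 11.80 to 11.99 with a median of 11.88 in BALB CF arrays, against 11.64, 11.68 and 11.69 in B6 CF females and 11.70 and 11.73 in B6 CF males. These did not overlap. The change was 0.19 (SE 0.06, limma adjusted p = 0.018), with 0.39 and 0.38 on the dimmer probe sets, and 0.18 (adjusted p = 0.069) without B6 CF male 1. Without the 5 arrays with raised squamous genes, which left only males among BALB CF arrays, Emp2 gave 0.22 (adjusted p = 0.058).

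Igfbp2 differed by 0.10 (95% interval -0.16 to 0.35, adjusted p = 0.66) between the strains' CF arrays. Ager (-0.04), Aqp5 (-0.18, adjusted p = 0.16), Pdpn (0.06) and Rtkn2 (-0.05) did not pass either. The strain comparison among CF arrays uses the same CF arrays as the CF effects, and that among controls the same controls. Of 15 capillary endothelium genes, 8 were higher and 1 lower in BALB in each genotype, and of 10 club and ciliated airway genes 7 were lower in BALB among CF arrays and 5 among controls. Among CF arrays, 6 of 11 squamous genes and 5 of 12 skeletal muscle genes were also higher in BALB. Of 10 fibroblast genes 4 were higher and 1 lower. Lower among CF arrays were also 3 of 5 lymphatic endothelium genes, 4 of 9 T cell genes and 2 of 8 neutrophil genes. So were 2 of 16 type 2 cell genes and 1 of 6 genes of heart and pulmonary vein muscle. Over all probe sets 8.66% were higher and 9.52% lower there, so single genes and the 2 of 16 were near that share. Among controls, 7 of 11 intestine genes were higher in BALB and 4 of 16 type 2 cell genes were lower. Of 8 neutrophil genes 5 were lower and 1 higher, and of 9 T cell genes 2 were higher. Of 5 lymphatic endothelium genes 1 was higher and 2 lower, and of 10 fibroblast genes 1 was higher and 2 lower. Of 12 skeletal muscle genes and of 6 heart and pulmonary vein muscle genes 1 each was lower. Over all probe sets 7.46% were higher and 8.12% lower among controls. The part of these lists in the members' strain differences was not tested.

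**Figure D3:**
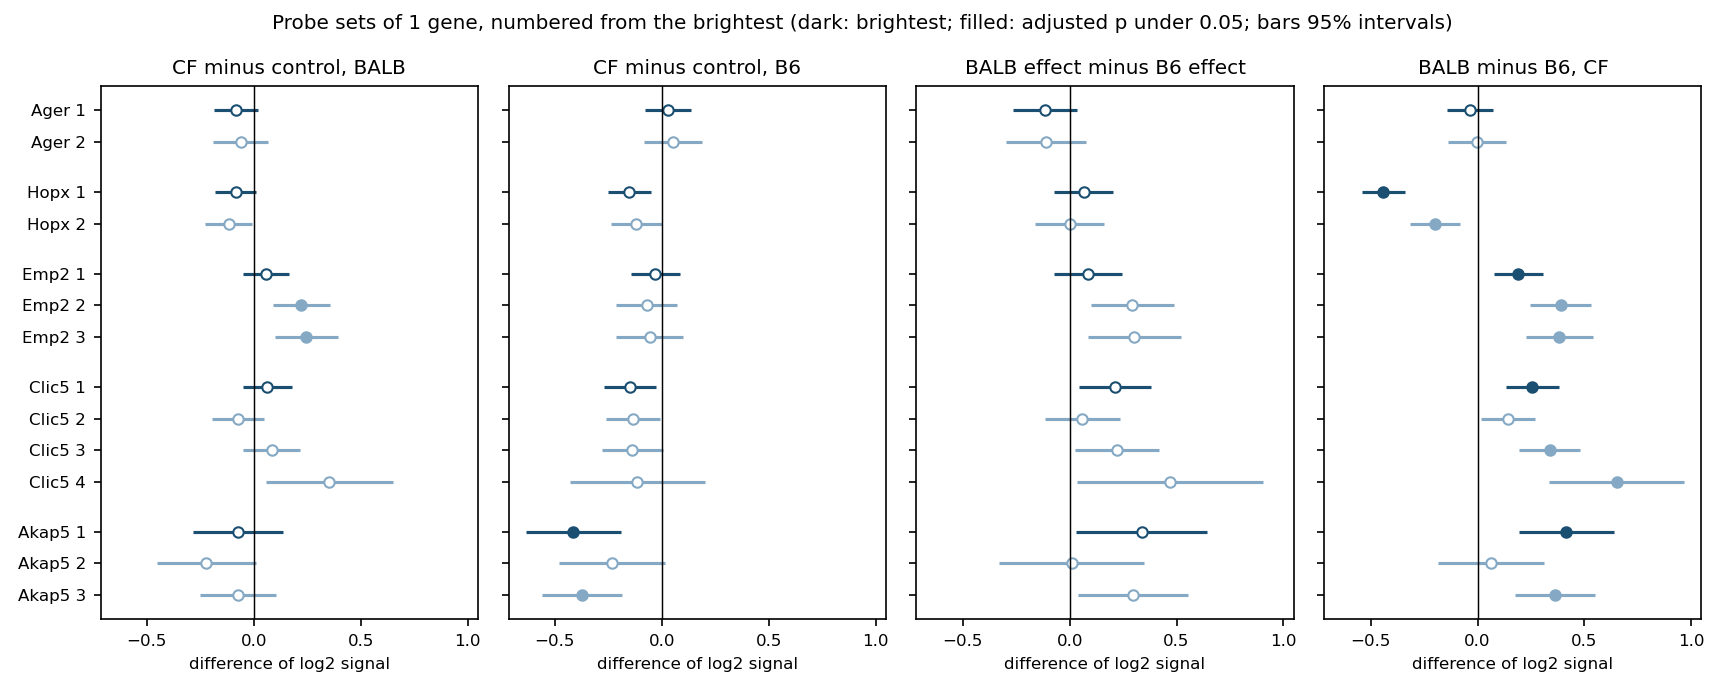
Difference of log2 signal (x axis) for each probe set of the 5 genes that had more than 1 (y axis, numbered from the brightest), for CF minus control in BALB, CF minus control in B6, the strain difference of these effects, and BALB minus B6 among CF arrays. Bars are 95% intervals, filled points have an adjusted p under 0.05, and dark points are the brightest probe set of a gene; the second Akap5 probe set lies at -0.23 in B6, beside -0.41 and -0.37 for the other two.

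No member passed between female and male controls, where 2.43% of all probe sets passed, and 0 of the 9 had an unadjusted p under 0.05 on the main probe set in the limma fit. The third Akap5 probe set stood at 0.27 (unadjusted p = 0.0050, adjusted p = 0.10), against 0.22 on the second. Igfbp2 stood at -0.20 (95% interval -0.44 to 0.04), and the other 8 lay between -0.03 and 0.10. The sex difference of the CF effect, the female effect minus the male effect, passed for none of the members in B6 (1.75% of all probe sets passed) or in BALB (0.0178% passed). Of the main probe sets, 1 in each strain had an unadjusted p under 0.05: Pdpn in B6 at -0.25 (adjusted p = 0.33) and Rtkn2 in BALB at -0.34 (adjusted p = 0.52). In BALB 3 other probe sets did too, the third of Akap5 at -0.51 (adjusted p = 0.34), the second of Hopx at -0.29 (adjusted p = 0.40) and the second of Clic5 at -0.32 (adjusted p = 0.40). The Igfbp2 effect differed between the sexes by -0.10 (SE 0.24) in B6 and by -0.07 (SE 0.23) in BALB. Its 95% intervals ran from -0.60 to 0.41 in B6 and from -0.55 to 0.40 in BALB.

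Of 28 further type 1 cell genes measured of 30 listed, 4 passed in B6 CF arrays, beside 4.71% of all probe sets. Ctgf, a matricellular protein and target of Yap and TEAD factors, rose by 0.70 (SE 0.15, limma adjusted p = 0.010). Spock2, an extracellular proteoglycan, fell by 0.40 (adjusted p = 0.030), Col4a4, a chain of basement membrane collagen, fell by 0.27 (adjusted p = 0.035), and Cav2, a caveolin, fell by 0.27 (adjusted p = 0.037). The list median was -0.07. In BALB CF arrays 3 passed, beside 4.92% of all probe sets: Ndnf, a secreted factor, rose by 0.46 (adjusted p = 0.00090), while Krt7, a keratin of simple epithelia, fell by 0.30 (adjusted p = 0.0092) and Ptrf, a coat protein of caveolae, fell by 0.37 (adjusted p = 0.030). Cav1, the main caveolin, stood at -0.18 (adjusted p = 0.062), and the list median was -0.09.

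The strain difference of the CF effect passed for 2 of these 28 genes and 2.54% of all probe sets, with Ndnf at 0.68 (adjusted p = 0.0017) and Ctgf at -0.92 (adjusted p = 0.024). Among CF arrays, 5 of the 28 were higher and 2 lower in BALB than in B6, beside 8.66% higher and 9.52% lower over all probe sets. Among controls, 4 were higher and 3 lower, beside 7.46% and 8.12% over all probe sets, with Ctgf at 1.19, Timp3, an inhibitor of matrix metalloproteinases, at 0.76, Krt7 at 0.30 and Gprc5a, an orphan receptor, at -0.47. Timp3 and Gprc5a were also called among CF arrays, at 0.62 and -0.54, as were Ndnf at 0.37 and Lama3, a laminin chain, at 0.35. Among 14 regulators of type 1 cells, 2 passed in BALB and 1 in B6 between CF and control arrays. Klf2, a zinc finger factor that endothelium also uses, fell by 0.87 in BALB CF arrays (adjusted p = 0.00015) and rose by 0.47 in B6 CF arrays (adjusted p = 0.029), with a strain difference of -1.35 (adjusted p = 0.00020). Lats2, a kinase of the Hippo pathway, fell by 0.39 in BALB CF arrays (adjusted p = 0.015).

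**Figure D4:**
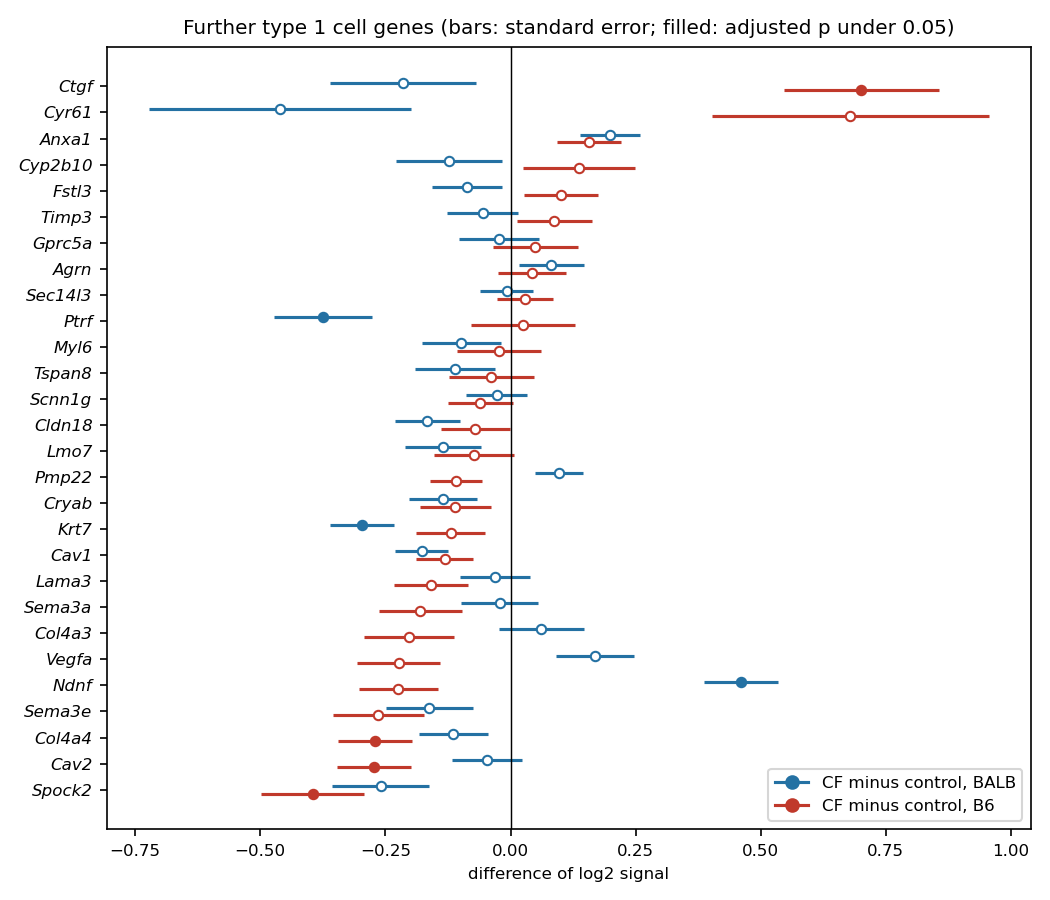
CF minus control difference of log2 signal (x axis) in BALB and in B6 for the 28 further type 1 cell genes (y axis, ordered by the B6 difference). Points are limma estimates, bars the standard error, and filled points have an adjusted p under 0.05; Ctgf lies at 0.70 in B6 and Ndnf at 0.46 in BALB.

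The members did not vary as a block. Deviations from the 8 group means over the 23 arrays correlated between pairs of members at Pearson's r from -0.34 (Rtkn2 with Akap5) to 0.67 (Ager with Aqp5). Igfbp2 correlated with Clic5 (0.62), Ager (0.61), Aqp5 (0.61) and Hopx (0.57), and Emp2 with Rtkn2 (0.64) and Clic5 (0.55). Spearman rank correlations of these pairs were 0.53, 0.58, 0.65 and 0.51 for Igfbp2, and 0.55 and 0.39 for Emp2. BALB control male 3 was the lowest BALB control for Emp2 (11.71), Rtkn2 (7.67) and Clic5 (10.41), and the pairs were not computed without it. Akap5, on its main probe set, had r below 0 to 7 of the other 8 and 0.10 to Hopx. Its Spearman rank correlations included -0.25 with Rtkn2, -0.07 with Pdpn and 0.03 with Emp2. Its other probe sets were not compared in this way. These are descriptions: every pair is read from the same arrays, and the group means had been taken out.

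The 5 other genes whose deviations were most like the mean deviation of the members, among 11625 genes with a mean at or above the median, were Icam1 (r = 0.84), Krt7 (0.81), Arhgef2 (0.81), Wnk1 (0.81) and Bcam (0.80). Over all candidates r ran from -0.90 to 0.84 with a median of 0.03. Icam1 is an adhesion molecule, Krt7 a keratin, Arhgef2 a guanine nucleotide exchange factor, Wnk1 a kinase that controls ion cotransporters and Bcam a laminin receptor. The arrays farthest from the rest were BALB control male 3, whose mean deviation was -0.13, and BALB CF male 1, at 0.09. Without them the 5 correlations were 0.74, 0.70, 0.64, 0.79 and 0.76.

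**Figure D5:**
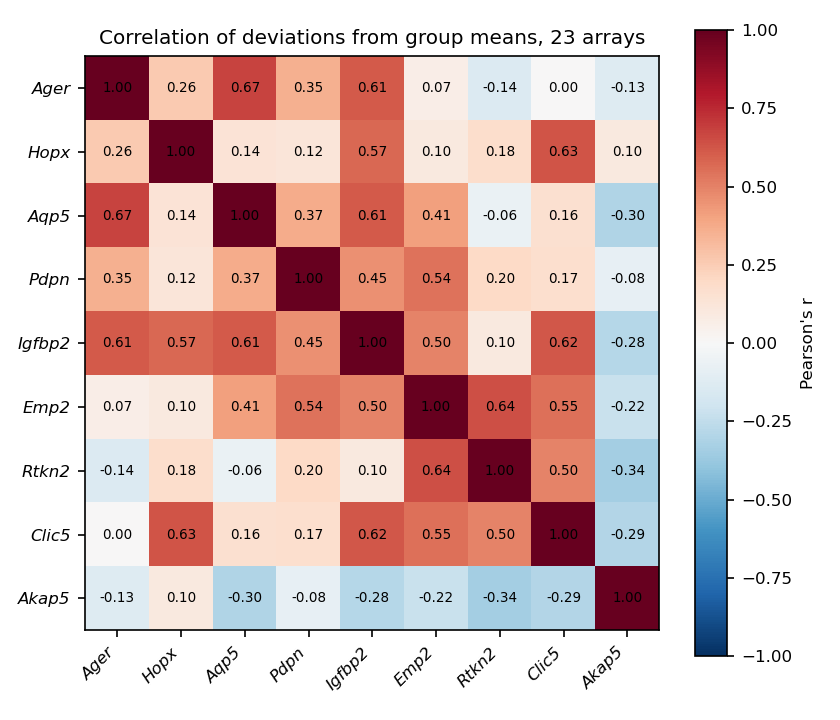
Pearson's r between the deviations from group means of each pair of the 9 genes' main probe sets over 23 arrays, on a colour scale from -1 (blue) to 1 (red); both axes list the genes. The largest value off the diagonal is 0.67, between Ager and Aqp5, and the Akap5 row is mostly below 0.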

How the data were processed

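Per the labels, biotin-labelled total RNA from whole right lungs was hybridised to 23 arrays. The analysis starts from the deposited log2 signals of the series' value table, 45101 probe sets. The log2 scale was inferred from values between 1.79 and 13.82, and how probes were summarised, normalized and centred is not given in the sources used here. Leaving out 64 control probe sets gave 45037, of which 34945 had 1 symbol in the platform annotation, 932 several and 9160 none. No 2 columns were identical (0 pairs).

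A mean for each of the 8 strain-by-sex-by-genotype groups was fitted in 1 model with limma 3.58.1 (lmFit and eBayes; R 4.3.3; 15 residual and 5.81 prior degrees of freedom), with Benjamini-Hochberg adjustment over all 45037 and a threshold of 0.05. CF effects and strain differences average both sexes. The fit was tested on simulated data with independent normal noise and added shifts. That simulation held none of the tissue differences of these arrays, and its outcome is not given here. A list's level on an array is the average of its genes' signals, each taken relative to that gene's median. Of 174 listed genes 164 were measured.

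The members and lists were chosen with earlier results of these data known. Named genes were the 9 members, up to 4 further type 1 cell genes of lowest p per comparison, up to 2 per other list, and the 5 genes of most alike deviations. Alternatives covered quantile normalization, median centring, bright probe sets only, an intensity trend, robust priors, array weights, additive sex, fewer arrays, a replicate block, tissue covariates, other probe sets and single arrays left out. Leaving out the 5 arrays with raised squamous genes was chosen after seeing the data. Promoter sequences are from RefSeq, GRCm38.p6.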

Additional observations from a re-analysis of the deposited data

Results flagged for a closer look

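The Igfbp2 change between CF and control arrays differed between the strains by 0.84 (SE 0.17, limma adjusted p = 0.0098), the only member of the 9 for which the test of that difference passed. Single arrays stood far from the rest of their strain and genotype on 3 of the 9 members, among 36 sets of arrays examined, and chance gives about 1 in 20. Pdpn read 9.85 in BALB CF male 1, while the other 5 BALB CF arrays were at 9.56 to 9.67. Rtkn2 read 7.67 in BALB control male 3, while the other 5 BALB controls were at 8.09 to 8.22. Akap5 read 7.95 in BALB control male 2, while the other 5 BALB controls were at 8.41 to 8.53.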

How the results depend on the processing

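The number of arrays limits every value here. Igfbp2 in B6 kept its fall under all 34 alternatives run (-0.77 to -0.61), and the lower Hopx and Igfbp2 of BALB controls and the lower Hopx of BALB CF arrays also passed under every alternative run for them. Igfbp2's strain difference passed in 32 of 33, Akap5 in B6 in 30 of 37 and Rtkn2 in BALB in 21 of 34. These counts include 23 fits with 1 array left out. Where a comparison does not use the array left out, its change stays the same and only the shared spread differs. Such fits could hardly lose a call, so the counts overstate how firm the calls within a strain or genotype are. Where a call was lost the cause was not tested.

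The arrays were not treated as paired, since nothing in the labels ties equal replicate numbers of the titles together. Deviations of the 77 same-numbered pairs correlated at -0.18 to 0.35 with a median of 0.002, against a median of -0.004 for other pairs, and 14 of 23 arrays were most like an array of their own number among those of other groups, where 33.3% of such pairs share a number, a hint from the data and not from the design. With the number as a replicate block, 2081 probe sets passed for the CF effect in B6 and 2173 in BALB, 1128 for the strain difference, 6919 and 8158 for the strains among controls and among CF arrays, and 1031 for the sexes, and the counts of members were 2, 1, 1, 2 and 4.

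Of probe sets passing for the CF effect in B6 (2121), the counts were 1071 with additive sex, 1276 with the squamous, muscle and intestine levels as covariates and 1096 without the 5 arrays with raised squamous genes. The fit without the 5 arrays, here and below, also took sex as an additive term. In it, leaving out arrays and the change of model cannot be told apart. For BALB (2217) the counts were 3824 with array weights, 1406 with only the arrays compared, 32 with covariates and 801 without the 5 arrays. For the strain difference (1142) they were 2043 with weights, 757 with additive sex and 10 with covariates. For the controls of both strains (7016) covariates gave 2438, and for their CF arrays (8189) leaving out the 5 arrays gave 5149. For the sexes (1094) weights gave 3666. For the sex difference of the CF effect, weights gave 1488 in B6 (788) and 132 in BALB (8), where only the arrays compared gave 24 and covariates gave 0.

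Members passing in B6 (2) were 1 with covariates and 1 without the 5 arrays. In BALB (1) they were 2 with weights and 0 with additive sex, with only the arrays compared, with covariates and without the 5 arrays. For the strain difference (1) covariates gave 0. Further type 1 cell genes in B6 (4) were 7 with only the arrays compared, 1 with covariates and 2 without the 5 arrays. In BALB (3) they were 5 with quantile normalization, with bright probe sets only and with an intensity trend, 7 with weights, 0 with covariates and 1 without the 5 arrays. For the strain difference (2) covariates gave 0, and for controls (7) weights gave 11 and covariates 3.

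Leaving out single arrays gave 852 to 2329 probe sets for B6, 1368 to 2851 for BALB, 591 to 1568 for the strain difference, 477 to 1772 for the sexes, and for the sex difference 245 to 1183 in B6 and 0 to 100 in BALB. It gave 1 to 2 members in B6, 0 to 1 in BALB and 2 to 4 between the strains' CF arrays, and 1 to 5 further genes in B6 and 4 to 9 between the strains' CF arrays.

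Of single members, no called change reversed sign. With quantile normalization, bright probe sets only, an intensity trend or array weights, Hopx passed in B6 (adjusted p = 0.043, 0.042, 0.013 and 0.045). Emp2 passed between controls with quantile normalization (0.17), and Aqp5 in BALB with weights (-0.24). With covariates Akap5 in B6 (-0.44, adjusted p = 0.066) and Emp2 between CF arrays (0.21, adjusted p = 0.066) no longer passed, with changes slightly larger in size than the -0.41 and 0.19 reported.

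Some differences that did not pass changed sign. The strain difference of Pdpn was 0.00053 with quantile normalization, 0.030 with covariates, 0.018 without the 5 arrays and -0.053 to 0.019 without single arrays. That of Aqp5 was 0.041 with covariates and -0.16 to 0.0078 without single arrays, and that of Hopx was -0.00021 on its second probe set. The BALB effect was 0.0067 for Pdpn and 0.0046 for Akap5 with covariates, 0.037 for Akap5 without the 5 arrays, and -0.075 for Clic5 on its second probe set. Between controls Rtkn2 was -0.038 with covariates and -0.029 to 0.11 without single arrays. Between CF arrays Ager was 0.020 and Rtkn2 0.060 without the 5 arrays. Ager in B6 was -0.0064 to 0.065 without single arrays.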
